A study of Rattus norvegicus with 6 samples.

Results

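Transcripts of 10 genes of the extracellular matrix were followed in Rat-1 fibroblasts, a cell line long established from rat. They were the proteoglycan genes Bgn, Dcn and Lum, the matricellular genes Sparc, Thbs2, Tnc and Postn, the elastic fibre and microfibril genes Fbln5 and Fbn1, and the laminin gene Lamc1. The genes were chosen by name, and all 10 have an entry among the 17143 in the deposited gene table. The cells had been lysed 4 h after seeding at 25000 cells per well on a matrix remodelled by the collagenase MMP13 (2 libraries), on a matrix remodelled by the collagenase MMP1 (2 libraries), or on native matrix (2 libraries). All 3 groups were grown in the same serum-containing medium before seeding, and only the cells adhering to the matrix were collected. The study asked how fibroblast transcription responds to a matrix that either enzyme has degraded. The labels call the samples duplicates and name no separate culture days, so p-values measure spread between libraries that may be technical.

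A proteoglycan is a core protein that carries glycosaminoglycan chains. Biglycan, decorin and lumican, encoded by Bgn, Dcn and Lum, are small leucine-rich proteoglycans that bind collagen fibrils and influence how these assemble. Matricellular proteins are secreted into the matrix but act mainly on how cells attach, move and receive growth factors there, and SPARC, thrombospondin 2, tenascin C and periostin are the usual examples. Fibrillin 1, from Fbn1, builds the microfibrils on which elastic fibres form with the help of fibulin 5, from Fbln5. Laminin gamma 1, from Lamc1, is the gamma chain of most laminin trimers of basement membranes.

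The libraries count transcript 3' ends, and values are the deposited reads divided by the authors' size factor of each library, called units here. Because a transcript gives reads at its end only, levels were not divided by gene length, and a level compares genes only as far as their 3' ends were annotated equally well. The libraries held between 161817 and 362122 reads, and 1 read was worth between 0.735 and 1.68 units. A gene with 0 reads in a library could still hold up to 3 reads there, or 2.21 to 5.04 units depending on the library. Fibroblast-defining genes, 7 of 7 in the table, summed to 4064 to 4487 units on MMP13-treated, 4056 to 4206 on MMP1-treated and 3656 to 4277 on native matrix. Most of that sum came from Col1a1 (mean 2094 units) and Vim (1308), followed by Col1a2 (456) and Thy1 (212). Pdgfrb averaged only 34.4 units, Col3a1 14.4 and Pdgfra 5.62. Marker lists of chondrocytes, tenocytes, leukocytes, endothelial and epithelial cells each took at most 0.0222% of the reads of any library, with 5 of 6, 4 of 5, 6 of 6, 6 of 6 and 6 of 6 of their genes in the table. The tenocyte marker Kera, the endothelial marker Tie1 and the epithelial marker Epcam had 0 reads, but other markers of these lists were present. The tenocyte transcription factor gene Scx averaged 37.6 units and the tenocyte marker Fmod 8.92. The monocyte genes Csf1r and Cd14 averaged 15.7 and 14.5 units, the chondrocyte marker Col2a1 13.3 and the epithelial marker Krt8 10.1. Leukocyte markers summed to 28.5 to 38.2 units on MMP13-treated and 38.0 to 49.2 on MMP1-treated matrix, against 21.9 to 26.7 on native matrix. Treated and native libraries did not overlap, but 28.5 and 26.7 units lie close together where 1 read is worth up to 1.68 units. Among the single genes tested below, libraries did not overlap in 37.5% for MMP13 against native and 38.4% for MMP1 against native. Rn45s, the table's entry for ribosomal RNA precursor, took 0.692% and 0.968% of reads on MMP13-treated and 0.661% and 0.936% on MMP1-treated matrix, against 0.347% and 0.293% on native matrix. The part of Rn45s and of these markers in the results below was not tested. In such bulk samples, fewer cells making a transcript and less of it per cell cannot be told apart.

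The 10 genes differed widely in level. Together they took 0.492% and 0.516% of reads on MMP13-treated, 0.456% and 0.479% on MMP1-treated and 0.466% and 0.480% on native matrix, and Sparc alone supplied between 56.3% and 65.5% of those reads. Sparc, which encodes a collagen-binding glycoprotein that also serves as an extracellular collagen chaperone, averaged 809 units over the 6 libraries and was number 16 of all genes by mean level. Bgn followed at 247 units and Fbln5 at 134 units. Each of these steps was larger than the spread between libraries, since the lowest Sparc value (700 units) lay above the highest of Bgn (301 units), and the lowest of Bgn (188 units) above the highest of Fbln5 (162 units). Next came Lamc1 at 46.0 units, Tnc at 24.4 and Fbn1 at 21.0. The ranges of Lamc1 and Tnc overlapped across libraries, but Lamc1 was above Tnc within each of the 6. Tnc was above Fbn1 in 3 of the 6 libraries, so these neighbours do not stand apart. Thbs2 (3.56 units) and Postn (3.35 units) had 17 and 16 reads over all 6 libraries. Dcn had 3 reads in all, and Lum had 0 of 1500498, which allows up to 3 reads over the series, against 4532 reads of Sparc.

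**Figure D1:**
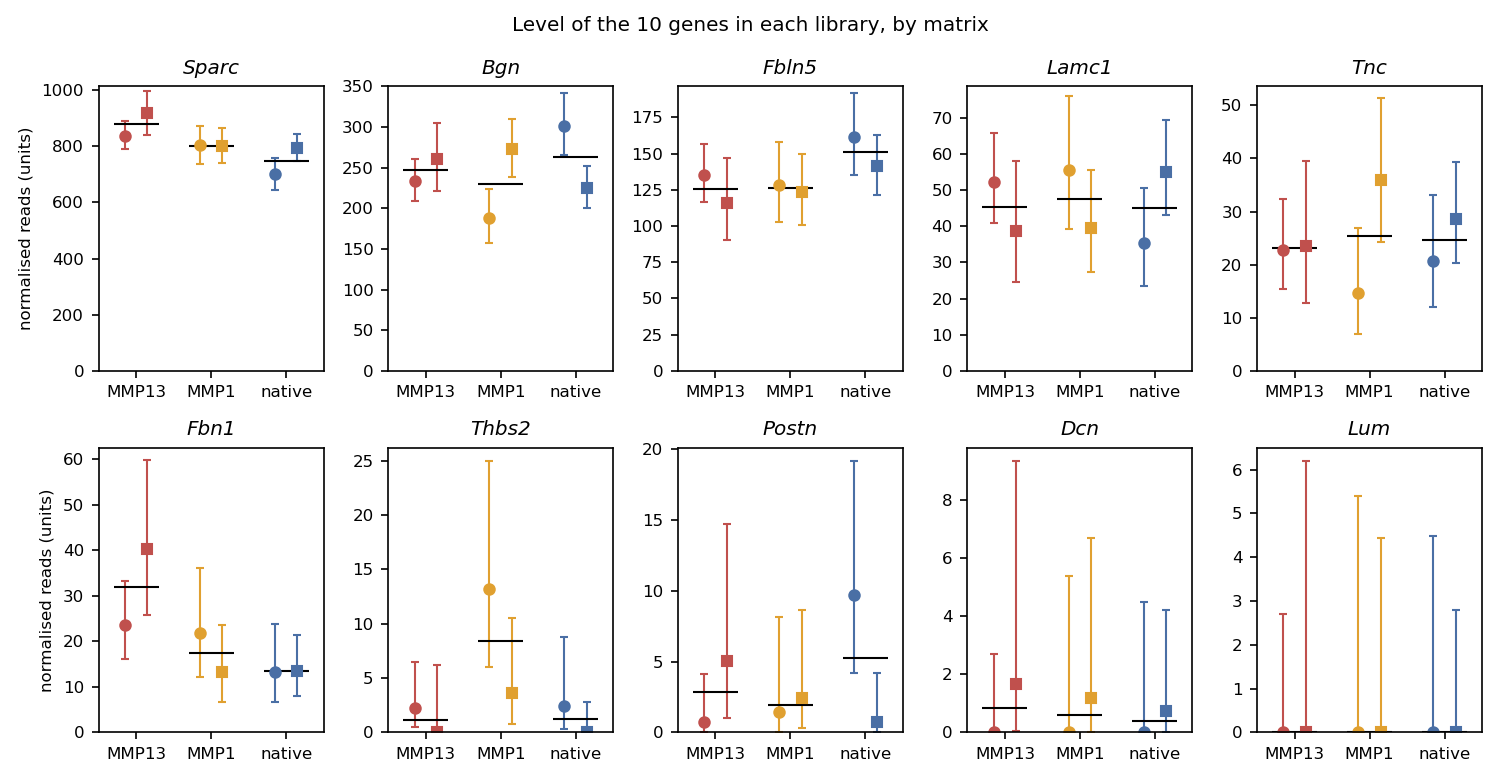
Each panel gives 1 gene, with the level in normalised reads (units) on a linear axis for the MMP13-treated, MMP1-treated and native matrix. Circles are replicate 1 and squares replicate 2, bars are exact 95% Poisson intervals of the reads (counting error only) and black lines are group means. In the panels of Sparc, Fbln5, Thbs2 and Fbn1 some pairs of groups do not overlap, and in the other panels every pair does. Both MMP13 libraries of Fbn1 (23.5 and 40.3 units) lie above both native ones (13.4 and 13.6 units). For MMP13 against native, libraries do not overlap in 37.5% of tested genes.

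None of the 10 genes passed the test in any comparison. The test was limma on log2(units + 1) over all 7284 genes with at least 5 units in at least 2 libraries, with a Benjamini-Hochberg adjusted p under 0.05 as the call. It took in 7 of the genes, namely Sparc, Bgn, Fbln5, Lamc1, Tnc, Fbn1 and Postn, while Thbs2, Dcn and Lum did not pass the filter. Postn passed through native replicate 1 (9.72 units) and MMP13 replicate 2 (5.04). Thbs2, of similar mean level, reached 5 units only in MMP1 replicate 1 (13.1). On MMP13-treated against native matrix 0 of the 7 were called, where 0.412% of all tested genes were. On MMP1-treated against native matrix 0 of the 7 were called, against 0.151% of all, and between the MMP13-treated and MMP1-treated matrices 0 of the 7, against 0.0412% of all. With backgrounds this low, a count of 0 in 7 does not set the genes apart from the rest of the table. At an unadjusted p under 0.05, 2 of the 7 differed on MMP13-treated matrix (8.05% of all genes), 0 on MMP1-treated matrix (8.24%) and 0 between the treated matrices (5.22%). On whole reads recovered from the values, edgeR's quasi-likelihood test took in 6 of the 10, not Postn, and called 0. DESeq2 gave an adjusted p to 3 of the 10 for MMP13 against native (Sparc, Bgn and Fbln5) and to 9 in each other comparison, and called 0 of those. The median log2 fold of the 7 was -0.07 on MMP13-treated matrix against native, beside 0.01 for all tested genes, and -0.08 on MMP1-treated matrix against native, beside 0.02.

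Among the matricellular genes, Sparc was the best measured. Its level was 838 and 917 units on MMP13-treated matrix, 803 and 802 on MMP1-treated matrix, and 700 and 794 on native matrix. Both libraries of each treated matrix lay above both native ones, and both MMP13 libraries above both MMP1 ones. On MMP13-treated matrix Sparc averaged 878 ± 55.5 units against 747 ± 66.3 on native matrix (SD, n = 2 each). The log2 fold was 0.23 (SE 0.11, limma adjusted p = 0.58). The 95% interval of that fold, 0.01 to 0.46, puts the level on MMP13-treated matrix between 1.01 and 1.37 times that on native matrix, so a doubling of Sparc is outside it. Taken from the spread of Sparc's own libraries the interval was -0.06 to 0.52. Against native, the MMP1-treated matrix gave a log2 fold of 0.11 (95% interval -0.12 to 0.33), and MMP13-treated against MMP1-treated matrix gave 0.13 (-0.10 to 0.35). Without native replicate 1 the log2 fold of Sparc was 0.14 on MMP13-treated and 0.0156 on MMP1-treated matrix against native, and without native replicate 2 it was 0.20 on MMP1-treated matrix. Without MMP13 replicate 2, MMP13-treated against MMP1-treated matrix gave 0.0630. Libraries that do not overlap are common in a design of 2 against 2: they occurred in 37.5% of tested genes for MMP13 against native, in 38.4% for MMP1 against native and in 31.4% for MMP13 against MMP1.

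Tnc encodes tenascin C, a large oligomeric glycoprotein of wound and embryonic matrix that weakens adhesion to fibronectin. It was found at 22.8 and 23.5 units on MMP13-treated, 14.6 and 36.01 on MMP1-treated, and 20.7 and 28.7 on native matrix. The 2 MMP1 libraries held the lowest and the highest of the 6 values, so the groups overlapped completely. The log2 fold was -0.07 on MMP13-treated (95% interval -0.95 to 0.81) and -0.08 on MMP1-treated matrix (-0.96 to 0.81) against native. Values of Tnc rest on 10 to 38 reads per library, and its libraries scattered more than the trend over genes (SD of 0.54 against 0.45 on the log2 scale). From its own spread the interval on MMP13-treated against native matrix was -1.79 to 1.65, so a doubling or a halving is inside it.

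Thbs2 encodes thrombospondin 2, a secreted glycoprotein that restrains blood vessel growth and shapes collagen fibrils. It had 3 and 0 reads on MMP13-treated matrix, 9 and 3 reads on MMP1-treated matrix, and 2 and 0 reads on native matrix. In units these were 2.21 and 0, then 13.1 and 3.60, then 2.43 and 0. Both MMP1 libraries were above all other libraries, but 3.60 units against 2.43 is a step of 3 reads against 2. With the filter on low values dropped, the log2 fold of Thbs2 for MMP1 against native was 2.12 (SE 1.18, limma adjusted p = 0.84). Its 12 reads on MMP1-treated matrix came mostly from replicate 1.

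Postn encodes periostin, which links collagen, fibronectin and tenascin C in connective tissue under load. One read in MMP13 replicate 1 and 3 in replicate 2 gave 0.735 and 5.04 units. The MMP1 libraries had 1 and 2 reads, or 1.46 and 2.40 units, and the native libraries 8 and 1 reads, or 9.72 and 0.755 units. The native libraries thus held both the highest value and a value near the lowest, and the groups overlapped. The interval of the log2 fold ran from -2.96 to 2.11 on MMP13-treated and from -3.12 to 1.95 on MMP1-treated matrix against native, so no difference in Postn was detectable at this depth.

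Of the 3 small leucine-rich proteoglycans followed, biglycan was expressed and the other two were at or near 0. Bgn was measured at 234 and 260 units on MMP13-treated, 188 and 272 on MMP1-treated, and 301 and 225 on native matrix. The MMP1 and the native libraries each held 1 of the 2 highest and 1 of the 2 lowest values, with both MMP13 libraries between them, so every pair of groups overlapped. On MMP13-treated matrix Bgn averaged 247 ± 18.7 units against 263 ± 54.2 on native matrix (SD, n = 2 each), and the log2 fold was -0.08 (limma adjusted p = 0.94). The MMP1-treated matrix averaged 230 ± 59.5 units, a log2 fold of -0.20 against native (limma adjusted p = 0.80). The SD of Bgn was 18.7 units on MMP13-treated matrix where reads alone would give 17.5, but 59.5 on MMP1-treated matrix where they would give 17.4 and 54.2 on native matrix where they would give 16.4, and the log2 SD of 0.28 exceeded the trend's 0.18. From that own spread, the interval of the fold on MMP13-treated against native matrix was -0.98 to 0.82, in place of -0.42 to 0.27 from the trend.

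Dcn was seen once in each group, with reads of 0 and 1 on MMP13-treated, 0 and 1 on MMP1-treated and 0 and 1 on native matrix. Lum, whose protein is abundant in cornea and dermis, had no read in any library. In the RefSeq annotation of the assembly GRCr8, Dcn, Lum, Kera and Epyc follow each other as neighbouring protein-coding genes. All 4 encode small leucine-rich proteoglycans, Kera that of cornea and Epyc that of cartilage, and Kera and Epyc also had 0 reads. Btg1, an antiproliferative gene and the next protein-coding neighbour on the side of Dcn, averaged 33.5 units. A second run of neighbours of the same family, Ogn, Omd and Aspn, held 57, 15 and 12 reads over the 6 libraries. Smoc2, the neighbour of Thbs2, averaged 2.08 units.

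Of the 7 tested genes, Fbn1 of the microfibrils had the log2 fold farthest from 0 in the limma fit. It was at 23.5 and 40.3 units on MMP13-treated, 21.9 and 13.2 on MMP1-treated, and 13.4 and 13.6 on native matrix. Both MMP13 libraries were above the other 4, and the MMP1 libraries lay on either side of the native ones. Libraries did not overlap in 37.5% of tested genes for MMP13 against native and in 31.4% for MMP13 against MMP1. The mean was 31.9 ± 11.9 units on MMP13-treated matrix against 13.5 ± 0.150 on native matrix (SD, n = 2 each). Reads alone would give an SD of 6.52 units on MMP13-treated and 3.64 on native matrix, so the native libraries lay closer together than counting error. The log2 fold was 1.14 (SE 0.49, 95% interval 0.17 to 2.10). That fold had an unadjusted p of 0.021 and a limma adjusted p of 0.48, and with Fbn1's own spread the interval was -0.19 to 2.46. It rests on 32 and 24 reads on MMP13-treated against 11 and 18 on native matrix, and was 0.76 without MMP13 replicate 2. On MMP1-treated matrix the log2 fold against native was 0.32 (-0.65 to 1.28), and MMP13-treated against MMP1-treated matrix had 0.82 (-0.14 to 1.78, limma adjusted p = 0.99), or 0.44 without MMP13 replicate 2 and 0.47 without MMP1 replicate 2. On MMP1-treated matrix against native the fold was -0.03 without MMP1 replicate 1 and 0.66 without MMP1 replicate 2. Neither treated matrix was thus shown to differ from the other in Fbn1.

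Fbln5 went the other way by value. It was at 135 and 116 units on MMP13-treated, 129 and 124 on MMP1-treated, and 162 and 141 on native matrix. All 4 libraries from treated matrix lay below both native ones. Taken singly, libraries did not overlap in 37.5% of tested genes for MMP13 against native and in 38.4% for MMP1 against native. The share of genes with both was not counted. The mean was 126 ± 13.8 units on MMP13-treated and 126 ± 3.45 on MMP1-treated matrix, against 151 ± 14.5 on native matrix (SD, n = 2 each). The log2 folds against native were -0.27 on MMP13-treated (95% interval -0.70 to 0.16, limma adjusted p = 0.82) and -0.26 on MMP1-treated matrix (-0.69 to 0.17, limma adjusted p = 0.78). Both comparisons use the same 2 native libraries, so they are not independent of each other. Between the treated matrices the log2 fold of Fbln5 was -0.01 (-0.44 to 0.42), and its sign turned with quantile scaling, with TMM scaling, by edgeR and by DESeq2. The SD of Fbln5 was 13.8 units on MMP13-treated matrix where reads alone would give 12.1, 3.45 on MMP1-treated matrix where they would give 13.0, and 14.5 on native matrix where they would give 12.3. Without MMP13 replicate 2 the fold on MMP13-treated matrix was -0.16, and without native replicate 1 it was -0.17 on MMP13-treated and -0.16 on MMP1-treated matrix.

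The laminin chain gene Lamc1 was at 52.2 and 38.6 units on MMP13-treated, 55.5 and 39.6 on MMP1-treated, and 35.3 and 55.1 on native matrix. Each group held 1 library between 35.3 and 39.6 units and 1 between 52.2 and 55.5, so the groups covered the same range. Its log2 fold against native was 0.03 on MMP13-treated (95% interval -0.64 to 0.69) and 0.09 on MMP1-treated matrix (-0.58 to 0.75). Laminin is a trimer of an alpha, a beta and a gamma chain, and the alpha 5 gene Lama5 and the beta 2 gene Lamb2 had mean levels close to that of Lamc1. The chain genes Lama2, Lama3, Lama4 and Lamb1 have no entry in the gene table, so their levels could not be compared. Lama5 averaged 47.8 ± 1.07 units on MMP13-treated, 52.1 ± 0.678 on MMP1-treated and 40.1 ± 5.16 on native matrix (SD, n = 2 each). Lamb2 averaged 33.4 ± 6.86, 42.2 ± 0.239 and 38.1 ± 5.81 units in the same groups.

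**Figure D2:**
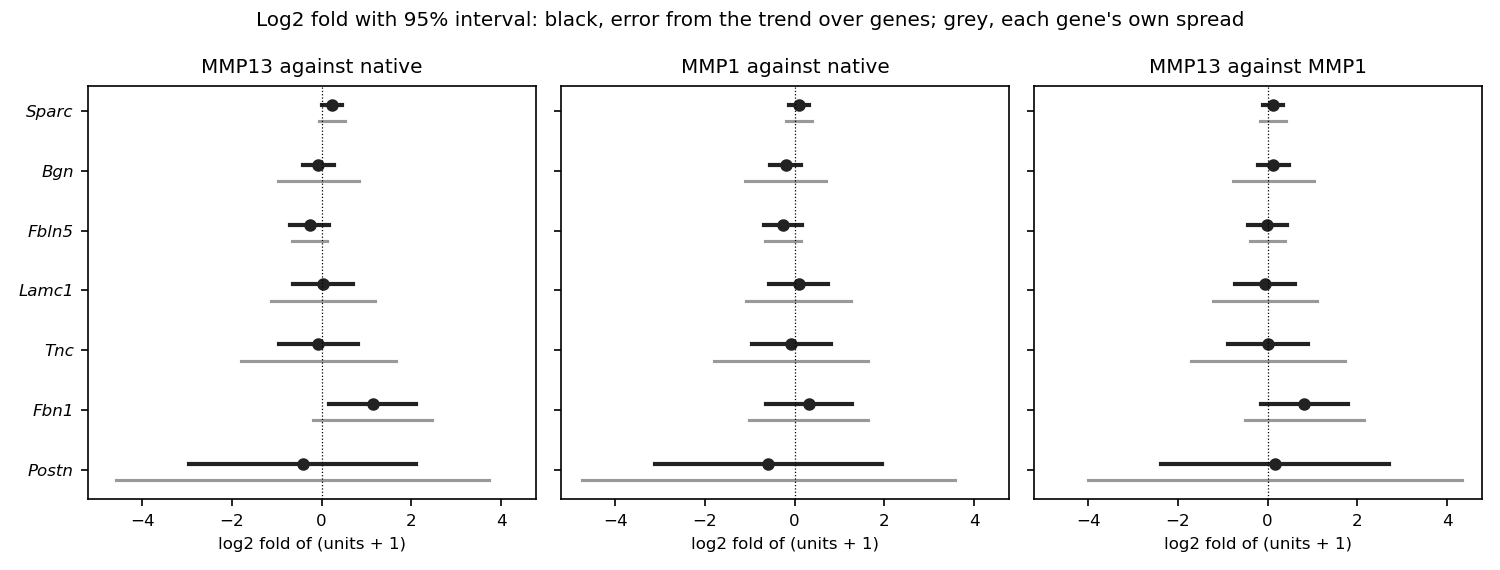
Points are log2 folds of (units + 1) for the 7 tested genes in the comparisons MMP13 against native, MMP1 against native and MMP13 against MMP1, on a shared axis. Black bars are 95% intervals with the error that limma took from the trend over genes, and grey bars are those from each gene's own 6 libraries. Black intervals exclude 0 for Sparc (0.01 to 0.46) and Fbn1 (0.17 to 2.10) on MMP13-treated against native matrix, both with adjusted p above 0.05, and every grey interval spans 0.

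The wider families of these genes were measured with 7 lists holding 141 genes, of which 120 are in the table and 73 were tested. No listed gene passed on MMP13-treated or MMP1-treated matrix against native, or between the treated matrices, among those to which limma, edgeR or DESeq2 gave an adjusted p. At an unadjusted p under 0.05, 6 of the 73 differed on MMP13-treated matrix against native (8.22%, beside 8.05% of all genes). On MMP1-treated matrix against native 11 did (15.1%, beside 8.24%), and 2 between the treated matrices (2.74%, beside 5.22%). The count on MMP1-treated matrix depended on the error model. Together with the tested members it was 11 of 80 in the main fit and 7 of 80 from each gene's own spread. It was 6 of 80 by limma without the trend, 6 of 60 by edgeR and 3 of 117 by DESeq2. The share over all genes was not counted in those other fits.

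Of 14 other small leucine-rich proteoglycan genes, 11 are in the table, 5 had no read and 4 were tested. Tsku (30.8 units), encoding the secreted signalling modulator tsukushi, and Ogn (10.9 units), encoding osteoglycin, were the highest. Ogn had the smallest p of this list, at 17.5 and 13.2 units on MMP1-treated against 4.86 and 7.55 on native matrix, a log2 fold of 1.20 (limma adjusted p = 0.65). The list's median log2 fold was 0.65 on MMP13-treated and 0.84 on MMP1-treated matrix against native, beside medians of 0.01 and 0.02 over all tested genes, but it rests on 4 genes. Among them Omd passed the filter through treated libraries only, at 6.72 units in MMP13 replicate 2 and 8.76 in MMP1 replicate 1. It was at 0 and 0.755 units on native matrix. Its log2 folds, 1.72 and 2.12, were the list's largest and lean toward the treated libraries through that filter. Of the 4 folds, 4 were above 0 on MMP13-treated matrix, and 3 were above and 1 below on MMP1-treated matrix. A shift of the list was not tested.

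The large and cell-surface proteoglycans were led by Sdc4, encoding the heparan sulphate proteoglycan syndecan 4 of focal adhesions. It averaged 541 ± 22.0 units on MMP13-treated, 602 ± 60.3 on MMP1-treated and 518 ± 82.8 on native matrix (SD, n = 2 each), second to Sparc among all genes of these lists. Sdc1 followed at a mean of 63.9 units. The hyaluronan receptor gene Cd44 had the smallest p of the 9 tested genes, at 50.7 and 33.6 units on MMP13-treated against 74.1 and 64.9 on native matrix, a log2 fold of -0.73 (limma adjusted p = 0.51), and -0.44 without MMP13 replicate 2. Neither group of Cd44 overlapped the other, as in 47.9% of the tested listed genes and 37.5% of all tested genes for MMP13 against native. The versican gene Vcan had 8 reads over the 6 libraries. The list's median log2 fold was 0.09 on MMP13-treated and 0.22 on MMP1-treated matrix against native.

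Among 19 other matricellular genes, 17 are in the table and 10 were tested. Fstl1, encoding the SPARC-family glycoprotein follistatin-like 1, averaged 292 ± 55.0 units on MMP13-treated, 312 ± 11.0 on MMP1-treated and 352 ± 16.9 on native matrix (SD, n = 2 each). The osteopontin gene Spp1 averaged 84.5 units over all libraries. Wisp1, a member of the CCN family of growth-factor-binding matricellular proteins, had the smallest p of all listed genes. Its level was 75.0 and 45.3 units on MMP13-treated matrix against 28.0 and 31.7 on native matrix, a log2 fold of 0.95 (limma adjusted p = 0.37). Without MMP13 replicate 1 the fold was 0.59. Libraries of Wisp1 did not overlap in that comparison, as in 47.9% of the tested listed genes and 37.5% of all tested genes. Thbs1, the paralogue of Thbs2, had 4 reads in all. The list's median log2 fold was 0.39 on MMP13-treated and 0.18 on MMP1-treated matrix against native. Smoc2, with the largest folds (1.31 and 1.53), passed the filter only through MMP13 replicate 1 (5.15 units) and MMP1 replicate 1 (7.30), with 0 reads on native matrix. Comp, with the lowest (-1.58 and -1.89), passed through both native libraries (12.2 and 12.8 units) and MMP13 replicate 1 (6.62).

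In the elastic fibre and microfibril list, 10 of 19 genes were tested. Ltbp2 (118 units), for a fibrillin-binding protein, and Mfap5 (64.0 units), for a microfibril-associated glycoprotein, were highest. Loxl1, the crosslinking oxidase that fibulin 5 tethers to elastic fibres, averaged 29.5 ± 6.11 units on MMP13-treated, 35.5 ± 7.69 on MMP1-treated and 29.8 ± 11.2 on native matrix (SD, n = 2 each). The elastin gene Eln itself had 3 reads over the 6 libraries, beside 764 of Fbln5. Emilin1, for an elastic fibre interface glycoprotein, had the smallest p, at 29.2 and 61.2 units on MMP1-treated against 30.4 and 14.3 on native matrix, with overlapping libraries and a log2 fold of 0.98 (limma adjusted p = 0.39). That fold was 0.46 without MMP1 replicate 2 and 0.47 without native replicate 2, but 1.504 without MMP1 replicate 1 and 1.499 without native replicate 1. The list's median log2 fold was 0.11 on MMP13-treated and 0.21 on MMP1-treated matrix against native. Mfap3, which had the list's largest folds (1.71 and 1.52), passed the filter through treated libraries only.

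**Figure D3:**
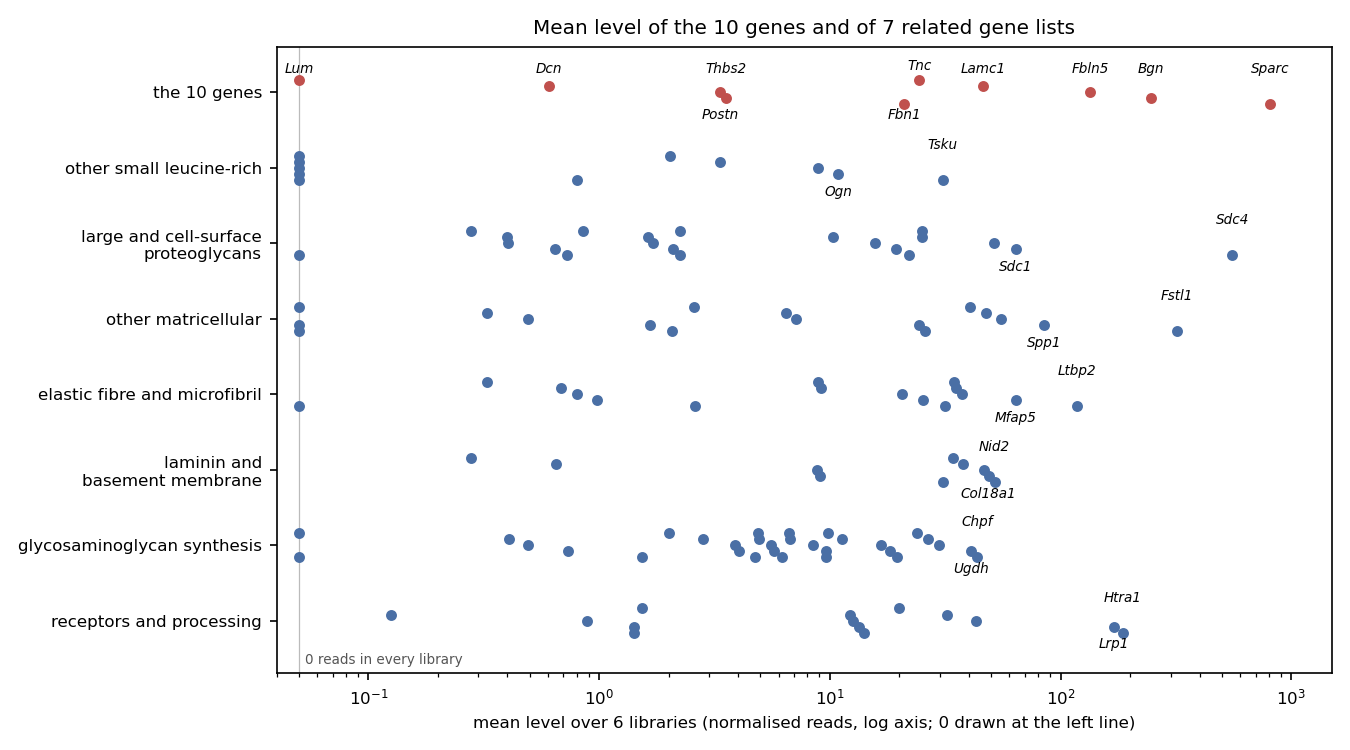
Each point is 1 gene's mean level over the 6 libraries in normalised reads, on a log axis, with genes of 0 reads drawn at the left line. The top row holds the 10 genes in red, the other rows the 7 related lists in blue with their 2 highest genes named, and the vertical offsets within a row only separate points. The 10 genes reach from 0 reads (Lum) to 809 units (Sparc), and in the related lists Sdc4 (554 units) and Fstl1 (318 units) lie highest.

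Of the laminin and basement membrane list 8 genes were tested, with Nid2 (51.7 units) and Col18a1 (48.8 units) highest. The median log2 fold was 0.23 on MMP13-treated and 0.33 on MMP1-treated matrix against native. Lamb3, which had the largest folds (1.08 and 1.16), passed the filter through treated libraries only. Of 31 genes in the table that build glycosaminoglycan chains, those of highest level were Chpf (43.4 units), for a chondroitin polymerising factor, and Ugdh (40.9 units), for UDP-glucose dehydrogenase, and the median was 6.20 units. In that list 23 genes were tested, with a median log2 fold of -0.15 on MMP13-treated and -0.09 on MMP1-treated matrix against native, and the heparan sulphate polymerase gene Ext2 came closest. It was at 33.6 and 34.8 units on MMP1-treated against 13.4 and 18.9 on native matrix, a log2 fold of 1.06 (limma adjusted p = 0.44). Its libraries did not overlap, as in 56.2% of the tested listed genes and 38.4% of all tested genes for MMP1 against native. A gene named for its smallest p is likely to be among these.

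Among receptors and processing enzymes, of which 9 were tested, the matrix serine protease gene Htra1 (186 units) and the endocytic receptor gene Lrp1 (171 units), whose product clears thrombospondins, were highest. Lrp1 was at 136 and 163 units on MMP1-treated against 232 and 187 on native matrix, a log2 fold of -0.48 (limma adjusted p = 0.45). These libraries did not overlap either, and the shares are those given for Ext2. The list's median log2 fold was -0.22 on MMP13-treated and -0.48 on MMP1-treated matrix against native.

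The profiles of the 3 highest genes over the 6 libraries were set beside those of 480 other tested genes with a mean of at least 100 units. Likeness was the mean absolute difference of log2(units + 1), each gene centred on its own mean. For Sparc the nearest were the chaperone gene Hsp90ab1 (0.02), the proton pump subunit gene Atp6v0c (0.03) and RGD1304587 (0.04), where the median over all candidates was 0.18. For Bgn they were Arf4 (0.06), Rps27l (0.07) and Ywhag (0.07), with a median of 0.23. For Fbln5 they were the chaperonin gene Cct4 (0.03), Htra1 (0.04) and the ribosomal protein gene Rps13 (0.04), with a median of 0.19. These are descriptions over 6 libraries, and no test was made.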

How the data were processed

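RNA was measured by 3' end sequencing with a random molecular identifier (UMI) of 8 nucleotides in the second read, per the labels' protocols. The build was rn5 and the tools were bcl2fastq, TopHat and DESeq, per the submitters' processing notes. The counter, the annotation release, use of strand and any UMI collapsing were not given in the sources used here. Reads that were not collapsed would not be independent molecules, so Poisson intervals and floors of 3 reads cover counting error only.

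The deposited values are a normalised signal: the authors scaled each library's gene counts by its size factor. This was read from the values, since in each library 100% of nonzero values were a whole number (tolerance 0.01 reads) times the smallest, and whole reads were recovered by division. Column names equal the sample titles, which gave group and replicate. Symbols were used as deposited, and RefSeq (GRCr8) served for neighbours only. Listed genes without a row in the table were not analysed here.

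Tests used limma 3.58.1 in R 4.3.3 (lmFit, eBayes with trend) on log2(value + 1), all 6 libraries, 1 coefficient per group, 3 residual degrees of freedom, no replicate block. Folds on this scale understate changes of low genes. The filter asked for 5 units in any 2 libraries, so a low gene could pass through treated or native libraries only. Its fold then leans toward those libraries, and so does the median of its list. The estimated prior degrees of freedom were infinite, so a gene's error came from the trend at its level; intervals from its own spread are therefore given too. The design foresaw counts or normalised values, and the second case applied. Alternatives changed the pseudocount (0.5, 5), the filter, the scaling, the error model, the libraries and the tool (edgeR 4.0.16, DESeq2 1.42.0). Scripts were tested on simulated counts.

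The members and lists were chosen with earlier results of these data known. Named were all 10 members and, per list, the 2 genes of highest level and the 1 of smallest p, of which 1 is not reported here. Kera, Epyc, Btg1, Omd, Aspn, Smoc2, Lama5, Lamb2, Vcan, Thbs1, Loxl1 and Eln were named after their values were seen.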

Additional observations from a re-analysis of the deposited data

How the results depend on the processing

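Across 18 alternatives the count of the 10 genes and the listed genes that passed, among those given an adjusted p, stayed at 0 in all 3 comparisons, and the smallest adjusted p was 0.073, of Sparc on MMP13-treated against native matrix with quantile scaling (log2 fold 0.32). With the replicate block the count was 0 in each comparison as well. The labels do not say that a replicate number is shared between groups, and deviations of same-numbered libraries correlated across 2647 genes at -0.06 to -0.004. Of 28 log2 folds followed, 15 kept their sign in each alternative that gave a value. Postn was not tested with the stricter filter, by edgeR or in some fits on fewer libraries. Signs turned for Tnc, MMP1 against native, by edgeR (0.0427) and DESeq2 (0.0299), and for MMP13 against MMP1 with a pseudocount of 5 (-0.0104), by edgeR (-0.15) and by DESeq2 (-0.14). For Fbln5, MMP13 against MMP1, the fold was 0.0220 with quantile scaling, 0.0022 with TMM scaling, 0.0194 by edgeR and 0.0190 by DESeq2, and for Postn it was -0.0679 with quantile scaling. Leaving out 1 library at a time, the log2 fold for MMP13 against native ran from -0.29 to 0.13 for Bgn, -1.73 to 0.48 for Postn, -0.30 to 0.16 for Tnc and -0.29 to 0.34 for Lamc1. For MMP1 against native it ran from -0.46 to 0.0653 for Bgn, -0.0274 to 0.66 for Fbn1, -0.70 to 0.55 for Tnc and -0.23 to 0.40 for Lamc1. For MMP13 against MMP1 it ran from -0.14 to 0.39 for Bgn, -0.12 to 0.10 for Fbln5, -0.0712 to 1.06 for Postn, -0.62 to 0.63 for Tnc and -0.30 to 0.18 for Lamc1. The causes were not tested, and none of these folds passed. A fit without a library leaves a group with 1 library, assumed to vary like the others.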
